A study of Mus musculus with 6 samples.

Results

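The cyclins and cyclin-dependent kinases (CDKs) that carry the cell from G1 into mitosis were followed in nascent transcription profiles of muscle stem cells (MuSCs). The genes were chosen by name, with earlier results of these data known, as 10 of the 14546 genes listed. Ccnd1, Ccnd2, Ccnd3, Cdk4 and Cdk6 formed the G1 set. Ccne1, Ccne2, Cdk2, Ccna2 and Ccnb1 formed the S and G2/M set. All 10 passed the filter on low values, which left 12451 genes for testing. The 6 PRO-seq libraries came from cultures of proliferating MuSCs. The 3 Ctrl libraries were from Pax7CreERT/Kmt5b+/+ mice (labelled Pax7CreERT/Suv4-20h1WT) and the 3 Kmt5b sKO libraries from Pax7CreERT/Kmt5b flox/flox mice (labelled Pax7CreERT/Suv4-20h1KO). Both groups carried the tamoxifen-inducible Cre at Pax7, a gene of satellite cells, so that the deletion was directed to these cells. Kmt5b, also named Suv4-20h1, encodes a methyltransferase of histone H4 lysine 20. Adult C57BL/6 mice of both sexes received tamoxifen, and the MuSCs were purified by magnetic sorting and expanded on Matrigel in medium with serum, LIF and bFGF.

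Cyclins are the regulatory partners of CDKs, and their synthesis and destruction set the order of the cell cycle. The D-type cyclins bind CDK4 and CDK6 in response to growth factors and begin the phosphorylation of RB, which releases E2F transcription factors. E2F factors then induce the E-type cyclins and cyclin A2, which drive S phase with CDK2, and cyclin B1 with CDK1 brings the cell into mitosis. In MuSCs the cycle must be entered for expansion and left for differentiation.

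PRO-seq maps engaged RNA polymerase II (Pol II) through the RNA it is making. Reads of the sense strand in the first 400 nt of a gene (the TSS region) are given in RPM, reads scaled to a fixed total per library. Reads in the rest of the gene (the gene body) are given in TPM, which also divides by length. The pausing index is the ratio of the TSS value to the gene body value. Per library, 926904 to 3246052 TSS reads and 7425424 to 16249164 gene body reads fell in the listed genes. For the cyclin and CDK genes, 7 to 1291 reads lay behind a TSS value and 56 to 8191 behind a gene body value. All log2 fold changes are Kmt5b sKO over Ctrl, from limma with 3 libraries per group unless a library was left out. Those of the TSS region and the gene body are on the scale of log2(value + 0.5). Those of the pausing index are on the log2 of the ratio, with nothing added. A call required an adjusted p (Benjamini-Hochberg, over all genes tested) under 0.1. As each library is scaled to a fixed total and was made from a mixed culture, fewer cells in a phase of the cycle and less transcription per cell cannot be told apart.

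Several features of the libraries bear on all results. The transcription of Kmt5b itself was not lower in the Kmt5b sKO libraries, with 34.8 ± 4.0 TPM in Ctrl and 38.5 ± 3.8 TPM in Kmt5b sKO MuSCs over the whole gene body (SD, n = 3 each), so these values do not check the labels. The summed gene body level of 4 Y-linked genes (Ddx3y, Eif2s3y, Kdm5d and Uty) was 0.62, 0.20 and 24.1 TPM across the Ctrl libraries, against 40.3, 42.4 and 2.28 TPM across those of Kmt5b sKO (replicates 1, 2 and 3 in this order, as in all sentences that follow). Y-linked transcription was thus found mainly in Ctrl replicate 3 and Kmt5b sKO replicates 1 and 2. Of 8 satellite cell and myoblast markers none was called in either region by limma, with an unadjusted p under 0.05 for 0 of their TSS regions and 1 gene body, against 11% and 15.9% of all genes tested. Of 10 markers of differentiating muscle, 9 had positive log2 fold changes in the gene body (median 0.84), and their summed level was 1801 to 3310 TPM in Ctrl and 3518 to 4731 TPM in Kmt5b sKO MuSCs. In the TSS region 9 also had positive log2 fold changes (median 0.98), and 8 had a limma unadjusted p under 0.05. There 2 of them were called (Mef2c and Tnnc2), against 1.66% of all genes tested. In the gene body none was called by limma (4 at an unadjusted p under 0.05), against 2.99% of all genes tested. Of 6 mature fibre markers 3 passed the filter and none was called, with positive log2 fold changes for all 3 in the gene body (median 1.04, 3 at an unadjusted p under 0.05), and the list summed to 104 to 275 TPM in Ctrl and 256 to 548 TPM in Kmt5b sKO MuSCs. The part of these muscle markers in the results was not tested. The endothelial and the fibro-adipogenic markers each summed to 14.7 TPM or less in every library, and of the immune markers Cd68 stood at 214 to 402 TPM while Itgam was at 0.65 TPM or less.

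The promoters are shown first, because the cell cycle genes of S phase and G2/M are known to be controlled through short promoter elements. RefSeq promoter windows of GRCm38.p6, from 250 nt before to 50 nt after the start, matched 6 of the 10 genes (Ccnd3, Cdk4, Cdk6, Ccne1, Cdk2 and Ccnb1). The stretches below lie upstream of the start in both RefSeq and the deposited table, and 3 members of the S and G2/M set stand beside Cdk4 of the G1 set. Capitals mark matches on either strand to the CCAAT box (CCAAT), the cell cycle homology region CHR (TTTGAA or TTCGAA), an E2F site (TTCCCGC or TTGGCGC), the GC box (GGGCGG) or the E-box (CACGTG).
Ccne1, chr7:38107535-38107740, minus strand: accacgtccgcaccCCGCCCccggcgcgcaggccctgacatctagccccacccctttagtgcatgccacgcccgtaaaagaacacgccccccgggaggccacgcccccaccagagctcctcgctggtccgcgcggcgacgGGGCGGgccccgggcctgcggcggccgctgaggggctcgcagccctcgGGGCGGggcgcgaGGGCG
Cdk2, chr10:128705052-128705301, minus strand: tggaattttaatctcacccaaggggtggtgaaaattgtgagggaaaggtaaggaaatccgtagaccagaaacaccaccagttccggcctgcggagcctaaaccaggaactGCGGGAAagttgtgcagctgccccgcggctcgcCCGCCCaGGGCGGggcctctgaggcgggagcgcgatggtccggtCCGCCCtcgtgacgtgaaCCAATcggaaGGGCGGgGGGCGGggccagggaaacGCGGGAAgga
Ccnb1, chr13:100786571-100786736, minus strand: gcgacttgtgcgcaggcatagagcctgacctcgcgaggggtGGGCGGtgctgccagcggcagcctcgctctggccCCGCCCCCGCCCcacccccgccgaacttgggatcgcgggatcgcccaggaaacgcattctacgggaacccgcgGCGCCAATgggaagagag
Cdk4, chr10:127063285-127063533, plus strand: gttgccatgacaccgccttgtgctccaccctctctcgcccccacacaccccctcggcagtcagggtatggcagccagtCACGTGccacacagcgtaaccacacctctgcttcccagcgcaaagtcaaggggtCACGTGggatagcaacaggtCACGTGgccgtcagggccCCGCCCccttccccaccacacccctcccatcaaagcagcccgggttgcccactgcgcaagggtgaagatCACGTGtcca

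The Ccne1 window held 4 GC boxes, the last of which crosses the end of the printed stretch, and no match to the other elements. Cdk2 had 2 E2F matches, at -140 and -10 from the RefSeq start, 1 CCAAT box and 6 GC boxes, of which 1 lies past the start. In Ccnb1, 2 CCAAT boxes stood at -99 and -67 from the RefSeq start. The first of them overlaps an E2F match and is printed, while the second lies downstream of the start in the deposited table, which is 84 nt further upstream. The Cdk4 stretch held 4 E-boxes, the element bound by MYC, and 1 of its 3 GC boxes. Ccnd3 had a single CCAAT box and 2 GC boxes near the listed start, and Cdk6 had 1 E-box. No CHR match was found in any of the windows near a listed start. Over all 32851 windows of this length, 37.4% held a CCAAT box and 11.7% at least 2, 19.2% a CHR, 6.81% an E2F match, 35.7% a GC box and 7.15% an E-box. These matches describe letters only, not binding.

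In the S and G2/M set, transcription of the E-type cyclins and of cyclin A2 was lower in Kmt5b sKO MuSCs, while none of the G1 genes was called. In the TSS region Ccne1 and Ccna2 fell, and in the gene body Ccne2 and Ccna2 fell. That is 2 of 10 genes in each region, all downward, against 0.731% of all genes tested called lower in the TSS region and 1.38% in gene bodies (1.66% and 2.99% in either direction). In each region 3 of the 10 genes were lower in all Kmt5b sKO libraries than in all Ctrl libraries, against 5.33% of all genes tested in the TSS region and 9.34% for the gene body. As the genes were chosen with earlier results of these data known, these counts are a description and no test of enrichment. All 5 S and G2/M genes had negative log2 fold changes in both regions, with medians of -0.82 (TSS region) and -1.03 (gene body). Among all genes tested 41.8% were negative in the TSS region and 46.2% along the gene body, with medians of 0.08 and 0.02. The G1 set had medians of -0.00 and 0.31.

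**Figure D1:**
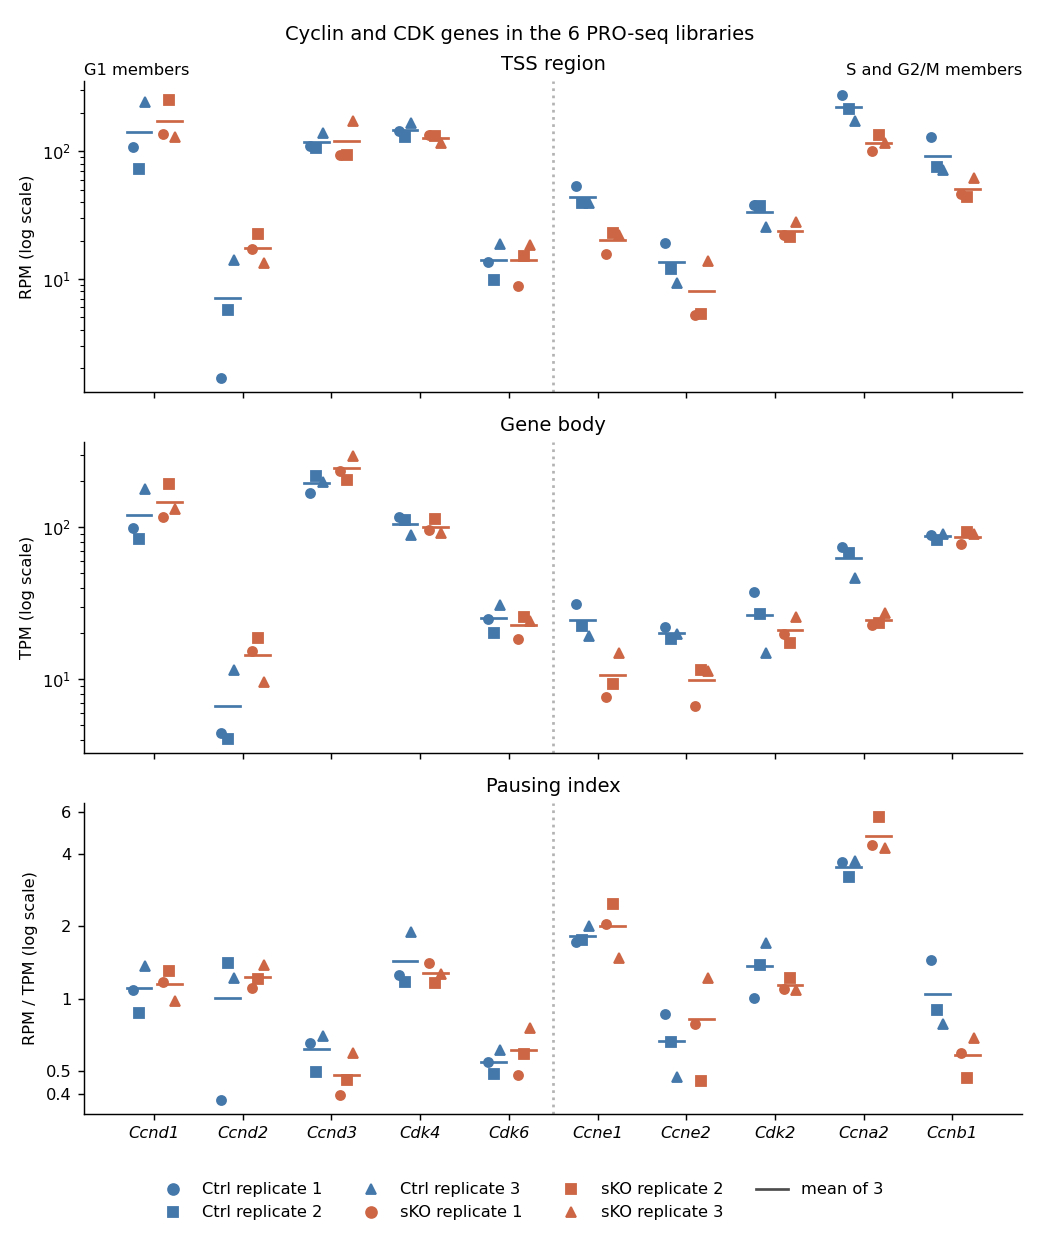
Values of the 10 genes in each library, as TSS region RPM (top), gene body TPM (middle) and pausing index, RPM over TPM (bottom), all on log axes; blue marks are Ctrl, orange marks Kmt5b sKO, shapes give the replicate, bars the mean of 3, and the dotted line divides the G1 set (left) from the S and G2/M set (right). In the gene body the Kmt5b sKO libraries lie below all Ctrl libraries for Ccne1, Ccne2 and Ccna2, and the 2 groups mix for the G1 genes.

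Cyclin A2, the partner of CDK2 in S phase and of CDK1 later, had the lowest adjusted p of the 10 genes in the gene body. The TSS region of Ccna2 (chr3:36564865-36572150, minus strand, GRCm38) had 275, 215 and 173 RPM across the Ctrl libraries, compared with 99.7, 134 and 116 RPM across the Kmt5b sKO libraries. Its gene body had 74.2, 67.1 and 46.1 TPM across the Ctrl libraries, against 22.7, 23.5 and 27.4 TPM across the Kmt5b sKO libraries. All Kmt5b sKO libraries lay below all Ctrl libraries in both regions. The gene body mean fell from 62.5 ± 15 to 24.6 ± 2.5 TPM (SD, n = 3 each), to 0.393 of the Ctrl level. The log2 fold change was -1.31 in the gene body (standard error 0.20, limma adjusted p = 0.061) and -0.90 in the TSS region (standard error 0.22, limma adjusted p = 0.071). With Y-linked transcription in the model it was -1.07 in the gene body (limma adjusted p = 0.028). Among the libraries with high Y-linked transcription the gene body values were 46.1 TPM in Ctrl against 22.7 and 23.5 TPM, and among the others 74.2 and 67.1 TPM in Ctrl against 27.4 TPM. The gene body call was lost without Ctrl replicate 1 or any of the Kmt5b sKO replicates, and the TSS call also without each of these, while the log2 fold change stayed between -1.51 and -1.17 in the gene body and between -1.07 and -0.73 in the TSS region. The first 400 nt lie wholly in exon 1, with 74 coding nt.

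Cyclin E1 activates CDK2 at the entry into S phase. Ccne1 (chr7:38097984-38107534, minus strand), whose promoter is printed above, had 53.7, 39.6 and 39.0 RPM in the TSS region across the Ctrl libraries, compared with 15.7, 23.1 and 22.1 RPM across the Kmt5b sKO libraries. Its gene body had 31.2, 22.5 and 19.4 TPM across the Ctrl libraries, against 7.67, 9.34 and 14.9 TPM across the Kmt5b sKO libraries. The groups did not overlap in either region. The TSS log2 fold change of -1.10 (standard error 0.27, limma adjusted p = 0.064) passed the test, and the gene body log2 fold change of -1.18 (standard error 0.27, limma adjusted p = 0.101) lay just outside it. Other settings moved the gene body across the threshold, with adjusted p = 0.065 from edgeR and 0.0025 from DESeq2 on the recovered reads and 0.085 from limma with Y-linked transcription in the model. Without Ctrl replicate 3 the gene body passed as well (limma adjusted p = 0.072). It did not pass without any other single library (limma adjusted p = 0.15 to 0.27) or with the replicate number as a block (limma adjusted p = 0.29). The TSS call was lost without Ctrl replicate 1, Kmt5b sKO replicate 1 or Kmt5b sKO replicate 3.

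Cyclin E2 is the second E-type cyclin. The gene body of Ccne2 (chr4:11191726-11204779, plus strand) had 22.1, 18.3 and 19.7 TPM across the Ctrl libraries, compared with 6.68, 11.6 and 11.3 TPM across the Kmt5b sKO libraries. Again no Kmt5b sKO library reached the lowest Ctrl library, and the mean fell from 20.1 ± 1.9 to 9.84 ± 2.7 TPM (SD, n = 3 each). The log2 fold change was -1.03 (standard error 0.22, limma adjusted p = 0.089). This call was lost without any single library except Ctrl replicate 3 (adjusted p = 0.13 to 0.26) and once Y-linked transcription entered the model (adjusted p = 0.104, log2 fold change -0.93). The TSS region was weakly covered, with 8 to 79 reads per library. It had 19.1, 12.1 and 9.28 RPM across the Ctrl libraries, against 5.24, 5.28 and 13.8 RPM across the Kmt5b sKO libraries, so that Kmt5b sKO replicate 3 lay within the Ctrl range (log2 fold change -0.78, standard error 0.42, limma adjusted p = 0.54). This value was -0.51 without Ctrl replicate 1, -1.22 without Kmt5b sKO replicate 3 and -0.23 once Y-linked transcription was modelled. Annotated isoforms of Ccne2 also start up to 375 nt upstream of the listed start. The sum of both E-type cyclins in the gene body was 39.1 to 53.3 TPM in Ctrl and 14.4 to 26.2 TPM in Kmt5b sKO MuSCs. Ccne1 made up 54.4% ± 4.6 of it in Ctrl and 51.7% ± 6.3 in Kmt5b sKO (SD, n = 3 each), so the shares differed by less than the replicate spread.

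CDK2 is the kinase that both E-type cyclins and cyclin A2 activate. Cdk2 (chr10:128697944-128705030, minus strand) had 38.0, 37.4 and 25.4 RPM in the TSS region across the Ctrl libraries, compared with 21.96, 21.1 and 28.1 RPM across the Kmt5b sKO libraries. In the gene body it had 37.7, 26.9 and 14.9 TPM across the Ctrl libraries, against 19.9, 17.4 and 25.7 TPM across the Kmt5b sKO libraries. The groups overlapped in both regions, as Ctrl replicate 3 was the lowest Ctrl library and Kmt5b sKO replicate 3 the highest Kmt5b sKO library. Its log2 fold changes of -0.48 in the TSS region (95% interval -1.04 to 0.08, limma adjusted p = 0.56) and -0.25 in the gene body (95% interval -1.01 to 0.51, limma adjusted p = 0.78) did not pass. Without Ctrl replicate 1 the gene body value was 0.05, and a model that held Y-linked transcription gave 0.18 there and -0.22 for the TSS region.

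Cyclin B1 drives mitosis with CDK1, and its values were lower near the start, without a call in limma, and alike along the gene body. The TSS region of Ccnb1 (chr13:100778650-100786570, minus strand) had 129, 74.7 and 71.0 RPM across the Ctrl libraries, compared with 45.9, 43.6 and 61.6 RPM across the Kmt5b sKO libraries. The gene body had 89.0, 82.9 and 90.6 TPM across the Ctrl libraries, against 76.9, 93.2 and 89.5 TPM across the Kmt5b sKO libraries. In the TSS region every Kmt5b sKO library lay below every Ctrl library, whereas in the gene body the groups were mixed. The TSS log2 fold change was -0.82 (standard error 0.25, limma adjusted p = 0.150), which missed the threshold in limma and passed it with edgeR (adjusted p = 0.093) and DESeq2 (adjusted p = 0.067) on the recovered reads. It was smaller without Ctrl replicate 1 (-0.54, limma adjusted p = 0.64) and once Y-linked transcription entered the model (-0.57, limma adjusted p = 0.29). In the gene body the log2 fold change was -0.02, with a 95% interval of -0.32 to 0.28 (limma adjusted p = 0.97). The gene body interval of Ccna2 reached from -1.76 to -0.85.

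**Figure D2:**
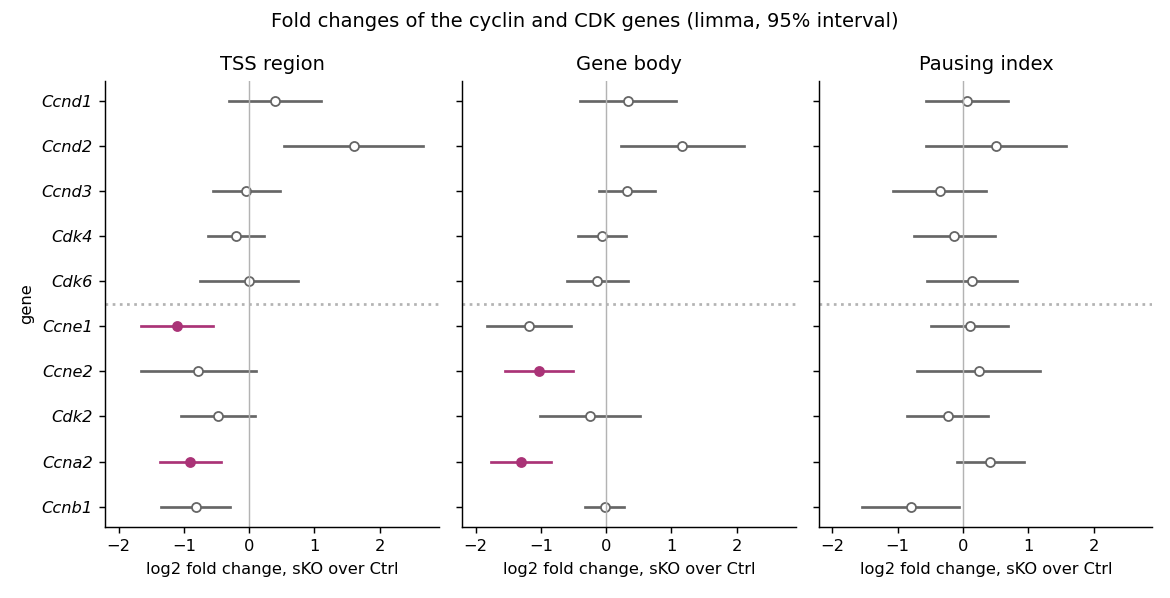
Log2 fold change (Kmt5b sKO over Ctrl, x axis) of each gene (y axis) in the TSS region, the gene body and the pausing index, with the 95% interval from limma (n = 3 per group); filled purple marks have an adjusted p under 0.1, and the dotted line divides the G1 set (top) from the S and G2/M set (bottom). Ccna2 is filled in both regions, Ccne1 in the TSS region and Ccne2 in the gene body, and Ccnb1 lies at -0.82 (TSS region) and -0.02 (gene body).

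Among the D-type cyclins, which couple growth factor signals to the cycle, Ccnd2 had the largest positive log2 fold change, at the lowest level. Its gene body (chr6:127125162-127151060, minus strand) had 4.45, 4.07 and 11.4 TPM across the Ctrl libraries, compared with 15.3, 18.6 and 9.66 TPM across the Kmt5b sKO libraries. Its TSS region had 1.69, 5.75 and 14.02 RPM across the Ctrl libraries, against 17.1, 22.5 and 13.3 RPM across the Kmt5b sKO libraries. In both regions Ctrl replicate 3 lay above Kmt5b sKO replicate 3, so the groups overlapped. Its log2 fold changes of 1.60 in the TSS region (standard error 0.51, limma adjusted p = 0.163) and 1.17 in the gene body (standard error 0.40, limma adjusted p = 0.22) did not pass. Without Ctrl replicate 3 both passed, at 2.26 (limma adjusted p = 0.033) and 1.61 (limma adjusted p = 0.045), whereas without Ctrl replicate 1 the TSS value was 0.90 (limma adjusted p = 0.64). Among the libraries with high Y-linked transcription the gene body had 11.4 TPM in Ctrl against 15.3 and 18.6 TPM, and among the others 4.45 and 4.07 TPM in Ctrl against 9.66 TPM. With Y-linked transcription in the model the log2 fold changes were 0.91 in the TSS region (limma adjusted p = 0.40) and 0.57 in the gene body (limma adjusted p = 0.153). As few as 7 and 10 reads lay behind the TSS values of Ctrl replicates 1 and 2.

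Cyclin D1 varied widely within each group. Ccnd1 (chr7:144929931-144939869, minus strand) had 98.3, 83.5 and 179 TPM in the gene body across the Ctrl libraries, compared with 116, 193 and 131 TPM across the Kmt5b sKO libraries. The TSS region had 107, 73.0 and 245 RPM across the Ctrl libraries, against 136, 251 and 128 RPM across the Kmt5b sKO libraries. Ctrl replicate 3 and Kmt5b sKO replicate 2 were the highest in both regions, and the ranges overlapped. The log2 fold changes of 0.40 in the TSS region (95% interval -0.31 to 1.10, limma adjusted p = 0.76) and 0.33 in the gene body (95% interval -0.40 to 1.07, limma adjusted p = 0.69) were within the replicate spread. Leaving out Ctrl replicate 2 gave 0.01 (TSS region) and 0.11 (gene body), and leaving out Ctrl replicate 3 gave 0.88 and 0.66, respectively. With Y-linked transcription in the model they turned to -0.18 and -0.01.

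Cyclin D3 is the D-type cyclin that is also known to accumulate as myoblasts leave the cycle. Ccnd3 (chr17:47593470-47599689, plus strand) had the highest gene body level of all 10 genes, with 169, 215 and 199 TPM across the Ctrl libraries, compared with 234, 203 and 293 TPM across the Kmt5b sKO libraries. Its TSS region had 110.4, 107 and 139 RPM across the Ctrl libraries, against 93.1, 93.1 and 173 RPM across the Kmt5b sKO libraries. Kmt5b sKO replicate 3 was the highest library in both regions, and the groups overlapped. The log2 fold change was 0.31 in the gene body (95% interval -0.11 to 0.74, limma adjusted p = 0.48) and -0.04 in the TSS region (95% interval -0.56 to 0.47, limma adjusted p = 0.98). Of 21 annotated isoforms 14 start upstream of the listed one, by up to 88419 nt, so any Pol II from these starts would also be counted in the listed TSS region. The D-type cyclins together had 321 ± 61 TPM in the gene body in Ctrl and 405 ± 35 TPM in Kmt5b sKO (SD, n = 3 each). Ccnd3 made up 61.5% and 60.2% of this sum, Ccnd1 36.6% and 36.2%, and Ccnd2 1.97% and 3.63%.

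The kinases of G1, CDK4 and CDK6, had gene body values that differed by less than the replicate spread. Cdk4 (chr10:127063534-127067920, plus strand) had 116, 112 and 88.1 TPM in the gene body across the Ctrl libraries, compared with 95.2, 114 and 91.8 TPM across the Kmt5b sKO libraries. Its TSS region, downstream of the E-boxes shown above, had 145, 130.4 and 167 RPM across the Ctrl libraries, against 135, 133 and 116 RPM across the Kmt5b sKO libraries. The libraries of both groups mixed in both regions. The log2 fold changes were -0.06 in the gene body (95% interval -0.44 to 0.31, limma adjusted p = 0.90) and -0.20 in the TSS region (95% interval -0.63 to 0.23, limma adjusted p = 0.82). Cdk6 (chr5:3343893-3531008, plus strand) had 25.0, 20.1 and 30.7 TPM in the gene body across the Ctrl libraries, compared with 18.4, 25.8 and 24.3 TPM across the Kmt5b sKO libraries. Its TSS region had 13.6, 9.77 and 18.8 RPM across the Ctrl libraries, against 8.85, 15.2 and 18.4 RPM across the Kmt5b sKO libraries. Here too the groups overlapped, with log2 fold changes of -0.14 in the gene body (95% interval -0.60 to 0.33, limma adjusted p = 0.81) and -0.00 in the TSS region (95% interval -0.76 to 0.75, limma adjusted p = 0.999). Cdk4 provided 80.4% ± 5.5 of the summed gene body level of both kinases in Ctrl and 81.5% ± 2.3 in Kmt5b sKO (SD, n = 3 each).

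The sets were then compared within each library, by the mean log2(value + 0.5) over the 5 genes of each set. For the S and G2/M set the gene body mean was 5.49, 5.2 and 4.93 across the Ctrl libraries, compared with 4.21, 4.44 and 4.70 across the Kmt5b sKO libraries. For the G1 set it was 5.57, 5.50 and 6.03 across the Ctrl libraries, against 5.91, 6.21 and 5.95 across the Kmt5b sKO libraries. The Kmt5b sKO libraries thus lay below the Ctrl libraries in the S and G2/M set, and the groups overlapped in the G1 set. The difference of G1 minus S and G2/M in the gene body was 0.08, 0.30 and 1.10 across the Ctrl libraries, compared with 1.70, 1.78 and 1.25 across the Kmt5b sKO libraries, without overlap, and its group means were 0.50 ± 0.53 and 1.57 ± 0.29 (SD, n = 3 each). In the TSS region it was -0.95, -0.44 and 0.74 across the Ctrl libraries and 0.97, 1.20 and 0.67 across the Kmt5b sKO libraries, where Ctrl replicate 3 overlapped Kmt5b sKO replicate 3. The shift between groups was 1.08 in the gene body and 1.17 in the TSS region on the log2 scale. A model that held Y-linked transcription gave 0.69 and 0.65. As the genes were chosen with results of these data known, the shift is given without a test.

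**Figure D3:**
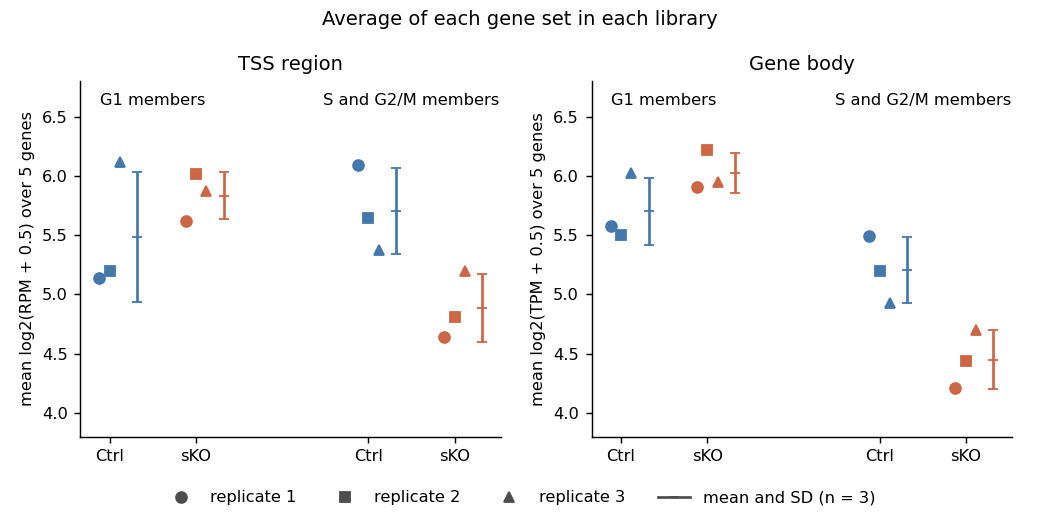
Mean log2(value + 0.5) over the 5 G1 genes and over the 5 S and G2/M genes (y axis) in each library, for the TSS region (left, RPM) and the gene body (right, TPM); blue is Ctrl, orange Kmt5b sKO, shapes give the replicate, and bars the mean and SD of 3. For the S and G2/M genes the groups do not overlap in either region, with gene body means of 4.93 to 5.49 in Ctrl and 4.21 to 4.70 in Kmt5b sKO, and for the G1 genes they overlap in both.

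The order of mean levels among the genes differed between the groups. Gene body TPM and TSS RPM, which refers to 400 nt in every gene, can be compared between genes. In the Ctrl gene body Ccnd3, Ccnd1, Cdk4 and Ccnb1 were the highest, each overlapping the next, with means of 194, 120.1, 105 and 87.5 TPM. Ccna2 followed at 62.5 TPM, apart from its neighbours. Cdk2, Cdk6, Ccne1 and Ccne2 lay between 26.5 and 20.1 TPM and overlapped each other in turn, and Ccnd2 was lowest at 6.65 TPM. The median tested gene had 15.9 TPM. In Kmt5b sKO MuSCs Ccna2 at 24.6 TPM overlapped Cdk6 at 22.8 TPM, and Ccnd2 at 14.5 TPM ranked above Ccne1 and Ccne2, whose libraries it overlapped. In the TSS region Ccna2 had the highest mean level in Ctrl, at 221 RPM, above 97.8% of all genes tested. It was above every Ctrl library of Cdk4, whereas in Ctrl replicate 3 Ccnd1 was higher (245 against 173 RPM). In Kmt5b sKO MuSCs the means of Ccnd1, Cdk4 and Ccnd3 ranked above that of Ccna2, at 117 RPM, and its libraries overlapped those of each of these genes.

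The pausing index was not different for any of the 10 genes at an adjusted p under 0.1, as for all 11698 genes tested (0% called by limma, 3.86% at an unadjusted p under 0.05). TSS and gene body values are each scaled to a fixed total per library. The index thus compares a gene with the rest of its library, and a change of pausing shared by all genes would not show. Ccna2 had the highest index of the set, 3.70, 3.20 and 3.76 across the Ctrl libraries, against 4.38, 5.70 and 4.25 across the Kmt5b sKO libraries. Its Ctrl mean of 3.55 lay above that of 84.4% of the genes tested, whose median was 1.55. The index of Ccna2 was higher in every Kmt5b sKO library than in every Ctrl library (log2 fold change 0.42, standard error 0.23, limma unadjusted p = 0.10). Ccnb1 went the other way, with an index of 1.45, 0.90 and 0.78 across the Ctrl libraries, compared with 0.60, 0.47 and 0.69 across the Kmt5b sKO libraries, also without overlap (log2 fold change -0.80, standard error 0.33, limma unadjusted p = 0.038, adjusted p = 0.9997), and -0.54 without Ctrl replicate 1. Indices without overlap were found for 5.93% of all genes upward and 3.09% downward. For the other 8 genes the groups overlapped, with log2 fold changes between -0.36 for Ccnd3 and 0.50 for Ccnd2.

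The genes whose gene body pattern was most like that of a cyclin were found by the root mean square difference of centred log2 values over the 6 libraries. For Ccna2 they were Neil3, a DNA glycosylase (0.08), and Dlgap5, a spindle protein (0.10). Ccne1 was nearest to Rad54l, a recombination factor (0.11), and Gins2, a subunit of the replicative helicase (0.14). The nearest to Ccne2 were the helicase subunits Mcm3 (0.08) and Mcm4 (0.09), with 21.99, 18.25 and 17.02 TPM of Mcm3 across the Ctrl libraries, against 6.85, 11.4 and 10.5 TPM across the Kmt5b sKO libraries. Ccnb1 was nearest to Pwp2 (0.04) and Ttc19 (0.04), which had log2 fold changes of -0.00 and 0.04. Ccnd1 was nearest to Crtam, at 1.86 TPM or less, and BC107364. Within the set, Ccna2 and Ccne1 were nearest to each other (0.23).

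The genes around the cyclins and CDKs were read from 9 lists with 117 genes, of which 112 were listed and 111 tested. These lists too were chosen with earlier results of these data known, so their counts are a description only. In the gene body 8 were lower and 1 higher (8.11% called), and in the TSS region 6 were lower and 1 higher (6.31%), with median log2 fold changes of -0.12 and -0.04. Among all genes tested 2.99% were called in the gene body (1.38% lower) and 1.66% in the TSS region (0.731% lower), with medians of 0.02 and 0.08, and this background applies to each list below. Cdk1, the kinase of mitotic entry, had 87.6, 78.8 and 52.0 TPM in the gene body across the Ctrl libraries, compared with 33.1, 33.9 and 40.1 TPM across the Kmt5b sKO libraries, without overlap, and fell by 0.99 on the log2 scale (limma adjusted p = 0.084). Of the 11 activators, phosphatases and inhibitory kinases of CDKs, 3 fell in the gene body. They were the phosphatase Cdc25c (-0.93), the CDK1-inhibiting kinase Wee1 (-0.90) and Cks2, a CDK-binding subunit (-0.87), with limma adjusted p = 0.080, 0.061 and 0.065. Wee1 and Cks2 also fell in the TSS region, together with Pkmyt1, a second CDK1-inhibiting kinase (log2 fold change -1.26, limma adjusted p = 0.040). The gene body of Pkmyt1 was not called (-0.32, limma adjusted p = 0.49), nor was the TSS region of Cdc25c (-1.06, limma adjusted p = 0.32). The groups overlapped in both cases. Thus both an activating phosphatase and inhibitory kinases of CDK1 were among the genes that fell, while the phosphatase Cdc25b and Cks1b were not called in the gene body (limma adjusted p = 0.64 and 0.99), nor was Ccnb2, a second B-type cyclin (limma adjusted p = 0.173).

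Among the 8 CDK inhibitors, only Cdkn1b, which encodes p27, was called, and only in the gene body. Its TSS region had a log2 fold change of -0.27 (limma adjusted p = 0.80), with overlapping groups. Its gene body had 43.2, 51.8 and 42.8 TPM across the Ctrl libraries, against 31.1, 28.8 and 28.9 TPM across the Kmt5b sKO libraries, without overlap (log2 fold change -0.62, limma adjusted p = 0.081). Cdkn1a, which encodes p21, had 462, 600.3 and 478 TPM across the Ctrl libraries, compared with 859, 706 and 969 TPM across the Kmt5b sKO libraries, also without overlap, but its log2 fold change of 0.72 did not pass (limma adjusted p = 0.152). Cdkn1c had the most negative log2 fold change of the list, -1.40, with 24.0, 26.6 and 2.12 TPM across the Ctrl libraries, against 3.51, 1.98 and 9.08 TPM across the Kmt5b sKO libraries, which overlapped (limma adjusted p = 0.54). Of the 27 genes of cyclin degradation only Fbxo5, an inhibitor of the anaphase-promoting complex, was called. Its log2 fold change was -1.04 in the gene body (limma adjusted p = 0.065) and -1.18 in the TSS region (limma adjusted p = 0.040). Fbxw7 of this list had positive values, 1.55 near the start (limma adjusted p = 0.139) and 0.87 along the gene body (limma adjusted p = 0.23). Its groups overlapped for both. At a limma unadjusted p under 0.05 this list had 1 higher and 3 lower TSS regions, and 1 higher and 7 lower gene bodies. In the RB and E2F list (13 genes) Rbl1, the RB relative p107, fell in the gene body (-0.69, limma adjusted p = 0.095), and E2f3 and E2f7 fell in the TSS region (-1.10 and -1.29, limma adjusted p = 0.081 and 0.045). Of 9 transcription factors of G2/M genes Lin9, a subunit of the DREAM and MMB complexes, fell (-0.70, limma adjusted p = 0.099). Its list also holds Mybl2, at -1.08 (limma adjusted p = 0.165).

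None of the 12 cyclins and CDKs that act on transcription was called (gene body median 0.00, 0 lower and 1 higher at an unadjusted p under 0.05), and none of the 9 transcription factors upstream of the D-type cyclins (median 0.03, 0 at an unadjusted p under 0.05 in the gene body). Of 16 atypical cyclins and CDKs Ccng1, a p53 target, rose. Its gene body had 39.8, 51.9 and 45.0 TPM across the Ctrl libraries, compared with 96.3, 72.3 and 73.2 TPM across the Kmt5b sKO libraries, without overlap (log2 fold change 0.81, limma adjusted p = 0.080). It was the only gene called upward in these 9 lists, in both regions.

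**Figure D4:**
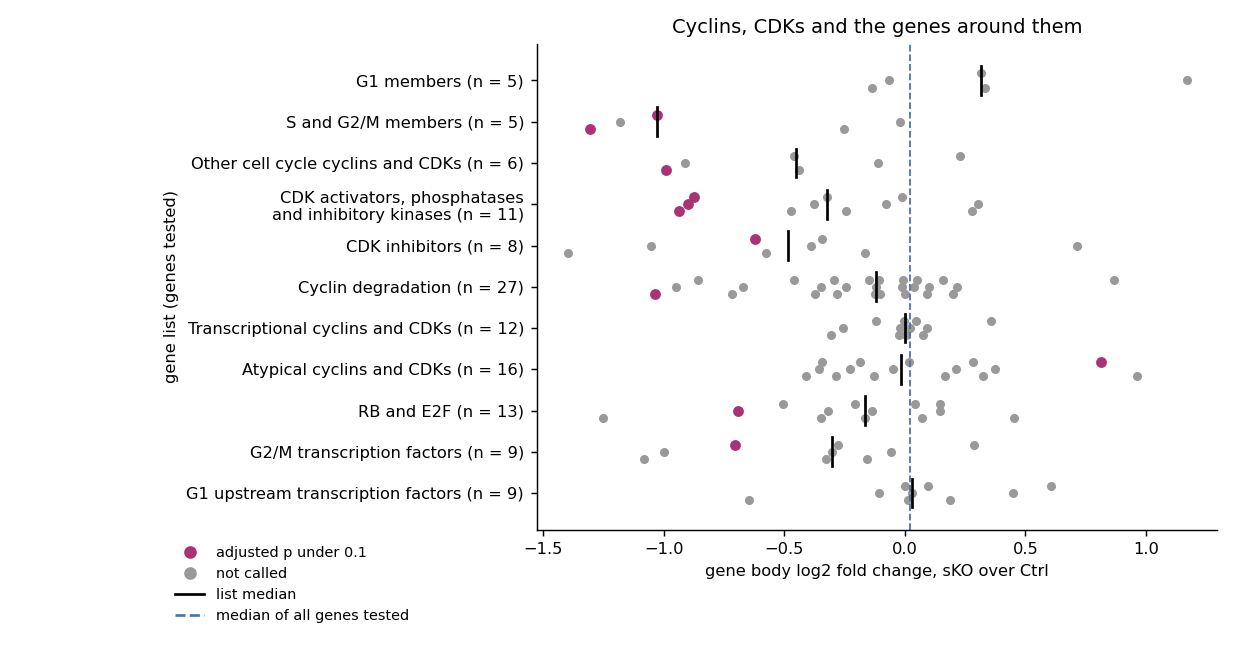
Gene body log2 fold change (Kmt5b sKO over Ctrl, x axis) of every tested gene of the G1 set, the S and G2/M set and 9 lists of related genes (y axis, number tested in brackets); purple points have a limma adjusted p under 0.1, grey points do not, black bars are list medians and the dashed line is the median of all genes tested (0.02). The S and G2/M set has the lowest median (-1.03) and the transcriptional cyclins and CDKs lie at 0.00.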

How the data were processed

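The data are 6 PRO-seq libraries of MuSC cultures, 3 per genotype. Per the authors' methods and the labels' processing notes, reads were checked with FastQC 0.11.8, trimmed with Trimmomatic 0.39, aligned to GRCm38 with STAR 2.6.1d, with 1 random position kept for a read that matched several, and deduplicated with Picard 2.18.16. For each isoform the authors counted sense-strand reads over its first 400 nt (TSS region) and its remainder (gene body), and the table keeps 1 isoform per gene. The gene body values that the authors deposited are TPM. The header names TPM for the TSS region too, but the deposited TSS values behave as RPM, whole reads scaled to 1 total, and were treated as such.

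Genes on X and Y and genes with a mean under 0.5 in either region were left out, which left 12451 of 14546. log2(value + 0.5) was tested with limma 3.58.1 (lmFit and eBayes with trend, R 4.3.3) on genotype alone, and the pausing index as log2(TSS / gene body) with no pseudocount, over the 11698 genes with values above 0 throughout. A call required an adjusted p (Benjamini-Hochberg, all genes) under 0.1. Whole reads were recovered from the steps between values (100% whole within rounding, checked on all TSS regions and on the 711 gene bodies under 2000 nt) and tested with edgeR 4.0.16 and DESeq2 1.42.0 as alternatives. In longer gene bodies rounding to the deposited decimals leaves reads approximate, by up to 1.37 reads in Cdk6 and at most 0.19 in the other members. The steps were tested on simulated data. The members and lists were chosen with earlier results of these data known. All members are named, with every list gene called, some list genes that were not called, markers, and the 2 genes most like Ccnd1, Ccnb1 and each member called. Annotated starts were compared with GENCODE M21. No column was left unused, and 5 list genes (Ccna1, Ccnq, Cdk15, Cdkl1 and Cdkl4) were not analysed here. The authors describe the samples as biological replicates.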

Additional observations from a re-analysis of the deposited data

How the results depend on the processing

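With 3 libraries per group, the calls depended on single libraries. Leaving out 1 library in turn, the number of genes called for the TSS region (207) ranged from 1 to 408 and that of cyclin and CDK genes called (2) from 0 to 4. For the gene body these were 0 to 836 genes (372) and 0 to 4 cyclin and CDK genes (2). No such gene was called in the gene body without Ctrl replicate 1 or any Kmt5b sKO replicate, nor in the TSS region without Ctrl replicate 1 or Kmt5b sKO replicate 1 or 3. Ccna2 alone was called in the gene body without Ctrl replicate 2, and Ccne1 alone in the TSS region without Kmt5b sKO replicate 2. Without Ctrl replicate 3 Ccnd2, Ccne1 and Ccna2 were called in both regions, with Ccnb1 in the TSS region and Ccne2 in the gene body.

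At an adjusted p under 0.05, 64 genes passed for the TSS region and 1 for the gene body, with 0 of the cyclin and CDK genes in either. In the TSS region 0 genes and 0 cyclin and CDK genes were called without the filter on low values (1448 genes at an unadjusted p under 0.05) and in eBayes without a trend (1292). In the gene body 1 cyclin or CDK gene was called without the filter. edgeR called 748 genes in the gene body and DESeq2 1295, with Ccne1, Ccne2 and Ccna2 among both. Among the called TSS regions alone, the share that was higher was 56.0% with the main scaling. It was 43.6% after quantile normalization, 46.0% after centring of the libraries, 46.2% with edgeR and 45.4% with DESeq2. Ccne1 and Ccna2 were called with each.

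With the replicate number as a block, 0 genes and 0 cyclin and CDK genes were called in each region (1141 TSS regions and 1441 gene bodies at an unadjusted p under 0.05). Same-numbered libraries were not alike in their deviations from the group means. Their correlations lay between -0.16 and -0.03 for the TSS region and between -0.33 and -0.15 for the gene body, and no library correlated best with its own number. As Y-linked transcription also differed within each number, this does not show whether same-numbered samples were prepared together.

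With a term for Y-linked transcription, an alternative chosen after seeing the data, 544 TSS regions and 1037 gene bodies were called, and 2 genes of the set in each. Some small differences turned, in the TSS region those of Ccnd1 (-0.18) and Ccnd3 (0.10), in the gene body those of Ccnd1 (-0.0060) and Cdk2 (0.18), and in the pausing index those of Ccnd1 (-0.17), Ccne1 (-0.13) and the G1 minus S and G2/M difference (-0.033). For the pausing index 1 gene was called with a pseudocount of 0.5 on both regions, against 0. The G1 minus S and G2/M difference of the pausing index ranged from -0.079 to 0.28 with 1 library left out. The other log2 fold changes that turned did so with 1 library left out, and ranged in the TSS region from -0.34 to 0.11 for Ccnd3 and -0.23 to 0.29 for Cdk6, and in the gene body from -0.19 to 0.0097 for Cdk4, -0.29 to 0.012 for Cdk6, -0.61 to 0.048 for Cdk2 and -0.076 to 0.062 for Ccnb1. In the pausing index they ranged from -0.10 to 0.23 for Ccnd1, -0.10 to 0.85 for Ccnd2, -0.26 to 0.081 for Cdk4, -0.033 to 0.30 for Cdk6, -0.069 to 0.30 for Ccne1 and -0.11 to 0.60 for Ccne2. The cause of these changes was not tested. Few reads lay behind some TSS values, at the least 7 for Ccnd2, 8 for Ccne2 and 17 for Cdk6.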
